A study of Mus musculus with 6 samples.

Results

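RGS proteins (regulators of G protein signalling) speed up GTP hydrolysis by the alpha subunit of heterotrimeric G proteins, and so shorten the signal that a G protein-coupled receptor starts. They share an RGS domain and are grouped into subfamilies by the rest of the protein: R4 members are small and mostly the RGS domain, R12 members include larger scaffold proteins, RZ members carry a cysteine string, and R7 members pair with Gβ5. Several R4 genes are known to be switched on quickly by receptor stimulation, and Rgs5 is widely used as a marker of pericytes, the cells that wrap small blood vessels.

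The 10 RGS genes Rgs2, Rgs3, Rgs4, Rgs5, Rgs10, Rgs12, Rgs14, Rgs16, Rgs17 and Rgs19 were examined among the 27179 genes of the count table, in CD34hi and CD34lo fibroblasts of the mouse mammary gland. They were selected with the CD34hi to CD34lo difference of these libraries in view, so that difference is described for them and carries no test. Pubertal FVB/N mice (FVB/NJ in the study's methods), 6 weeks old, supplied Lin-CD24-Pdgfrα+ cells that were divided by surface CD34 in the sort, the study asking how the CD34hi cells, taken as progenitors, differ from CD34lo cells. Each of 3 pools of 2 mice gave 1 library of each population, so there were 6 libraries from 3 sets of animals.

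Total counts lay between 28764779 and 52402410 per library, and a count of 3, used here as the floor of detection, corresponded to between 0.0553 and 0.108 CPM (a gene's counts for each 1000000 counts of the library after TMM scaling). Cd34 itself was between 476 and 793 CPM in the CD34lo libraries and between 2490 and 2639 CPM in the CD34hi libraries, in the direction of the sort. The 5 fibroblast markers summed to between 31503 and 36429 CPM in CD34lo and between 28386 and 31856 CPM in CD34hi libraries, but they did not move together. Igfbp5 was higher in CD34hi (log2 fold change 3.45), Lum (-1.28), Pdgfra (-0.74) and Col1a2 (-0.69) were higher in CD34lo, and Dcn did not pass the edgeR test. In bulk RNA, fewer cells of a type and less RNA per cell cannot be told apart.

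Of the 10 genes, 4 (Rgs2, Rgs16, Rgs5 and Rgs4) lie on chromosome 1, which holds 12 of the 24 RGS and RGS-related genes listed. Rgs5 and Rgs4 are neighbours, 47950 bases apart with 0 genes between them. Rgs2 was followed by Rgs13, Rgs1, Rgs21 and Rgs18 with 0 genes between each pair, and those genes had too few counts to be tested. The 250 bases before the transcription start of these 4 genes are shown because they hold the largest differences of the R4 subfamily and a neighbouring pair. They come from RefSeq on build GRCm38.p6, the build of the count table, and are written 5′ to 3′ on the strand of the gene: Rgs2 at chr1:144004150-144004399 (minus strand), Rgs16 at chr1:153740103-153740352 (plus strand), Rgs4 at chr1:169747643-169747892 (minus strand) and Rgs5 at chr1:169655251-169655500 (plus strand). Capitals mark matches on either strand to the motifs searched, namely the cyclic AMP response element (CRE) TGACGTCA and its half-site TGACG, the AP-1 motif TGANTCA, the GLI motif TGGGTGGTC and the TATA box TATAAA. A CRE contains its half-site, and no match to the whole CRE was found in these 4 stretches.
Rgs2: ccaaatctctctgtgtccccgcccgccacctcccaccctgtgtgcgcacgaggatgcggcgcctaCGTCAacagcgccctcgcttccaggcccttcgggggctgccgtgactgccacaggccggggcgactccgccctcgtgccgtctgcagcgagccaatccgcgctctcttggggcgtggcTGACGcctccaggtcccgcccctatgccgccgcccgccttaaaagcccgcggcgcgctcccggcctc
Rgs16: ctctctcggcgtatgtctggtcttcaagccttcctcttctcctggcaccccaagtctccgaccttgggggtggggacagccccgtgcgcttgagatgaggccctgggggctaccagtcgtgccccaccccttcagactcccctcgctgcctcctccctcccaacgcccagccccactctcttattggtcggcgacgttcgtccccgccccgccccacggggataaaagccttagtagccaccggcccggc
Rgs4: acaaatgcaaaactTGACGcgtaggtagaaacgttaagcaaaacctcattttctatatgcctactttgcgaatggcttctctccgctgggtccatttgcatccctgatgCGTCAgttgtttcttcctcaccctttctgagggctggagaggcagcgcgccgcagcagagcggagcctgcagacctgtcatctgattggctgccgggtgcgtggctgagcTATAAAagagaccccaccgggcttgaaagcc
Rgs5: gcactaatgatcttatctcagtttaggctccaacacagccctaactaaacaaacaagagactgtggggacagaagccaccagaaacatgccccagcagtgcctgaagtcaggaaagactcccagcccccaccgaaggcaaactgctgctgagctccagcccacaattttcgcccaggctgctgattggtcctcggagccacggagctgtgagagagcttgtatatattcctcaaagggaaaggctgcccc

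The Rgs2 stretch held 2 CRE half-sites, the first base of each 185 and 67 bases before the start. The Rgs4 stretch held 2 half-sites, 236 and 141 bases before the start, and a TATA box 31 bases before it. The stretches of Rgs16 and Rgs5 held none of the motifs. The same length was searched in 32851 RefSeq promoters, with those of chromosome 18 left out. Among them 17.8% held the half-site, 1.55% the whole CRE, 6.75% the AP-1 motif, 0.225% the GLI motif and 12.4% the TATA box. G and C made up 72.4% of the Rgs2 stretch and 66.4% of the Rgs16 stretch, against 53.6% for both Rgs4 and Rgs5 and a median of 52.4% over the promoters searched. The Rgs2 stretch held 30 CpG pairs and the Rgs5 stretch 4, with a median of 6. Of the 10 genes, 9 had 13 promoter entries in all, and Rgs14 had none.

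Of the 10 genes, 8 had enough counts to be fitted, and Rgs14 and Rgs17 did not. Of the 8, 7 were lower in CD34hi than in CD34lo fibroblasts and 1, Rgs19, was higher, with a median log2 fold change of -1.60, against -0.0064 over all 15219 genes tested. For 6 genes every CD34lo library lay above every CD34hi library, and 6 had an adjusted p under 0.05 in edgeR's quasi-likelihood test, all higher in CD34lo. Over all genes tested, 35.6% passed that threshold (16.9% higher in CD34hi and 18.7% higher in CD34lo) and the populations did not overlap for 50.1%. Since the genes were selected on this contrast, these counts are descriptions.

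**Figure D1:**
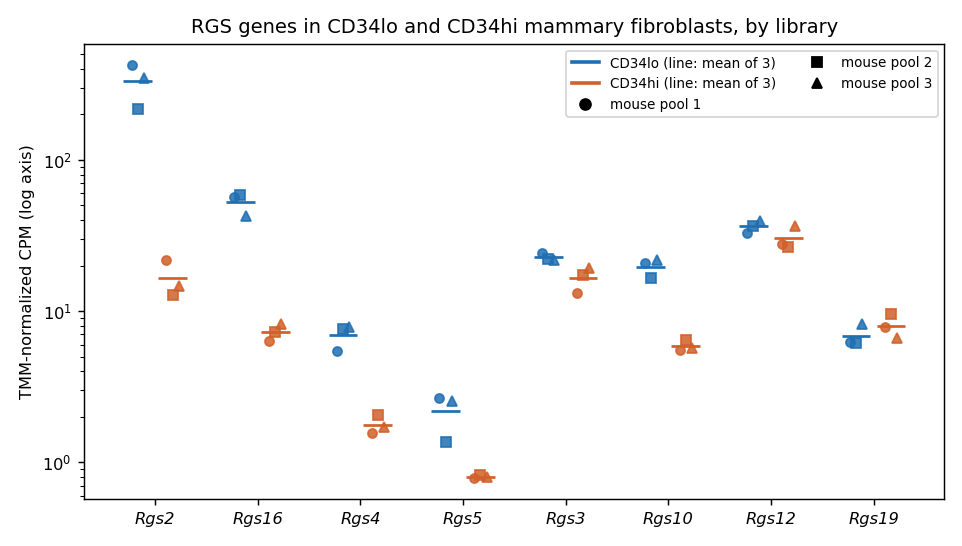
TMM-normalized CPM (log axis) of the 8 fitted RGS genes in each library, CD34lo in blue and CD34hi in orange, with a symbol for each mouse pool and a line at the mean of 3 libraries. Rgs2 lies between 219 and 427 CPM in CD34lo and between 12.7 and 21.8 CPM in CD34hi libraries, while the libraries of Rgs12 and Rgs19 overlap between populations.

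Rgs2 is an R4 protein that acts mainly on Gαq. Its gene (identifier 19735) spans chr1:143999338-144004149 on the minus strand. Rgs2 was at 427, 219 and 348 CPM in CD34lo pools 1, 2 and 3, and at 21.8, 12.7 and 14.7 CPM in the matching CD34hi libraries. The lowest CD34lo library was thus far above the highest CD34hi library. The log2 fold change, CD34hi against CD34lo, was -4.33 (SE 0.31), 20.1-fold higher in CD34lo, and the log2 difference within pools was -4.29, -4.09 and -4.56. It stayed between -4.56 and -4.08 under every alternative tried. An antisense gene lies over 3422 bases of the Rgs2 gene and had 0 counts in all 6 libraries. The library kit does not mark strand, and how reads on overlapping genes were counted is not given. The 0 counts therefore do not show that the antisense gene was silent.

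Rgs16 (identifier 19734), on chr1:153740353-153745468 of the plus strand, encodes an R4 protein that acts on Gαi and Gαq. Rgs16 was at 57.3, 58.5 and 42.6 CPM in the CD34lo libraries and at 6.33, 7.26 and 8.25 CPM in the CD34hi libraries. The populations did not overlap, and the third pool was the closest of the 3. The log2 fold change was -2.86 (SE 0.17), 7.25-fold higher in CD34lo, with differences within pools of -3.17, -3.00 and -2.36. Without pool 3 the log2 fold change of Rgs16 was -3.09.

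Rgs4 and Rgs5 are the neighbouring R4 genes, both with known roles in vascular and mural cells. Rgs4 (identifier 19736, chr1:169741477-169747642, minus strand) was at 5.42, 7.55 and 7.84 CPM in CD34lo and at 1.57, 2.04 and 1.70 CPM in CD34hi libraries. Its log2 fold change was -1.97 (SE 0.23), and no CD34hi library reached the lowest CD34lo library. Rgs5 (identifier 19737, chr1:169655501-169693526, plus strand) was at 2.67, 1.37 and 2.54 CPM in CD34lo and at 0.783, 0.828 and 0.794 CPM in CD34hi libraries. The log2 fold change of Rgs5 was -1.46 (SE 0.33), and pool 2 showed the smallest difference, at -0.69 against -1.71 and -1.62.

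The Rgs5 values rested on 363 counts in all, 262 of them in CD34lo libraries. An antisense gene overlaps Rgs5 over 959 bases and had 179 counts, namely 40, 18 and 71 in CD34lo and 12, 21 and 17 in CD34hi libraries. The library kit does not mark strand, so reads of Rgs5 and of that gene cannot be told apart where they overlap. Of the 9 pericyte markers tested, 7 were higher in CD34lo and 1, Kcnj8, in CD34hi. The 10 pericyte markers listed summed to between 811 and 1086 CPM in CD34lo and between 312 and 436 CPM in CD34hi libraries. Their largest part came from Pdgfrb, which fibroblasts also express, at a mean of 701 CPM in CD34lo and 191 CPM in CD34hi libraries. The other markers went both ways. Mcam (log2 fold change -2.44), Cspg4 (-2.57), Notch3 (-3.28) and Vtn (-2.60) were higher in CD34lo, and Kcnj8 (1.39) was higher in CD34hi. Abcc9, the second largest part of the sum, was at a mean of 106 CPM in CD34lo and 123 CPM in CD34hi libraries and did not pass (log2 fold change 0.21, edgeR adjusted p = 0.603). Higd1b had at most 19 counts in a library and 0 in the CD34hi library of pool 1. All 6 smooth muscle markers were higher in CD34lo, summing to between 92.5 and 134 CPM against between 12.8 and 14.2 CPM in CD34hi. Whether cells of these types had a part in the levels of Rgs4 and Rgs5 was not tested.

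Rgs3, the last of the R4 genes fitted, encodes a protein that also binds Gβγ. Rgs3 (identifier 50780, chr4:62559847-62703019, plus strand) was at 24.2, 22.3 and 21.8 CPM in CD34lo and at 13.2, 17.3 and 19.3 CPM in CD34hi libraries. Its populations did not overlap, but the gap between them was narrow. The log2 fold change was -0.46 (SE 0.16), and it was -0.24 without pool 1 and -0.29 without the CD34hi library of pool 1, in which the difference was -0.87 against -0.36 and -0.18 in the others.

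The R12 genes ranged from a clear gap between populations to near absence. Rgs10 (identifier 67865, chr7:128373625-128418172, minus strand), a short protein that acts on the Gαi family, was at 20.7, 16.6 and 21.7 CPM in CD34lo and at 5.52, 6.46 and 5.71 CPM in CD34hi libraries. Its log2 fold change was -1.74 (SE 0.15), 3.34-fold higher in CD34lo, with no overlap between the populations. Rgs12 (identifier 71729, chr5:34949448-35033595, plus strand), a large scaffold with additional binding domains, was at 32.9, 36.7 and 39.2 CPM in CD34lo and at 27.9, 26.7 and 36.8 CPM in CD34hi libraries. The Rgs12 libraries overlapped, and the log2 fold change was -0.25 (SE 0.15), between -0.40 and -0.15 over the alternatives. Rgs14 (identifier 51791, chr13:55369732-55384687, plus strand), a scaffold best known from neurons, had 3 counts over all 6 libraries, too few to compare.

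The RZ genes Rgs19 and Rgs17 differ in where they are known to be expressed, Rgs17 mostly in brain. Rgs19 (identifier 56470, chr2:181688423-181693924, minus strand), also called GAIP, was at 6.27, 6.11 and 8.26 CPM in CD34lo and at 7.87, 9.49 and 6.62 CPM in CD34hi libraries. Its libraries overlapped and its differences within pools had both signs, at 0.33, 0.63 and -0.32, with a fitted log2 fold change of 0.22 (SE 0.20). Over the alternatives it lay between 0.0027 (without pool 2) and 0.49 (without pool 3), so its direction was not settled. Rgs17 (identifier 56533, chr10:5825663-5922400, minus strand) had 22 counts in all, 10 in CD34lo and 12 in CD34hi libraries, at or near the floor of detection.

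**Figure D2:**
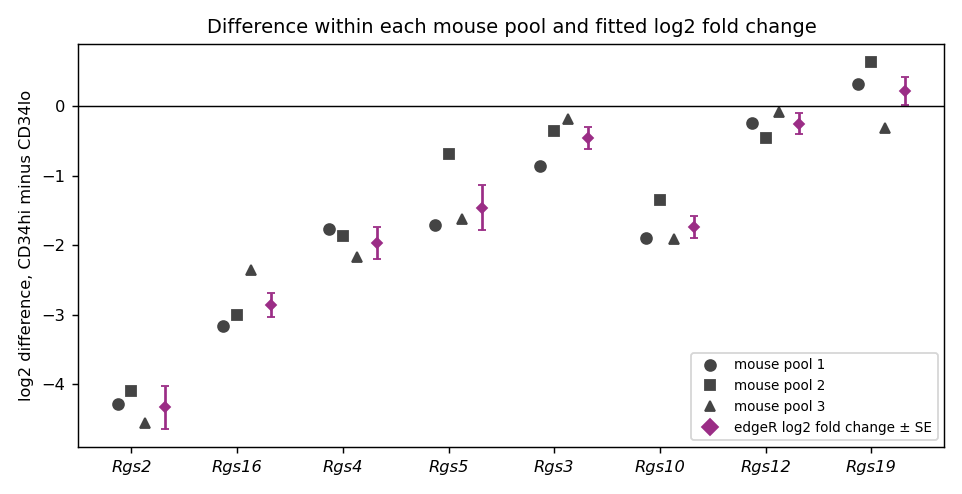
Log2 CPM of CD34hi minus CD34lo within each mouse pool (grey symbols) and the edgeR log2 fold change with its standard error (purple diamond) for the 8 fitted RGS genes. All 3 pools lie below 0 for 7 genes, and Rgs19 has pools on both sides of 0.

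Levels of different genes were compared per kilobase of gene length (RPKM). In CD34lo fibroblasts Rgs2 was the highest at 110 ± 35.0 RPKM (SD, n = 3), above Rgs16 at 22.6 ± 3.79 and Rgs10 at 22.5 ± 3.09, whose ranges overlapped. Rgs12, Rgs19, Rgs3, Rgs4 and Rgs5 followed in that order without overlap between neighbours, from 6.48 to 1.21 RPKM. In CD34hi fibroblasts Rgs10 (6.74 ± 0.565), Rgs19 (5.49 ± 0.990), Rgs2 (5.46 ± 1.59) and Rgs12 (5.44 ± 0.989) had overlapping neighbouring ranges. Rgs16 came next at 3.12 ± 0.411 RPKM, and Rgs3, Rgs4 and Rgs5 followed, separated from each other. Rgs17 and Rgs14 were last in both populations, and their ranges overlapped.

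**Figure D3:**
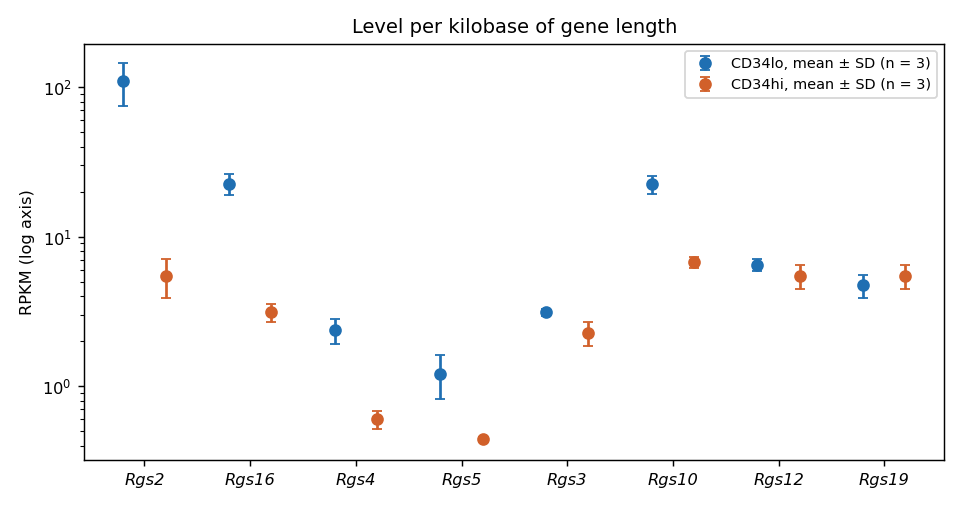
Level per kilobase of gene length (RPKM, log axis) of the 8 fitted RGS genes as mean ± SD of 3 libraries, CD34lo in blue and CD34hi in orange. Rgs2 stands at 110 RPKM in CD34lo and at 5.46 RPKM in CD34hi, beside Rgs10, Rgs19 and Rgs12.

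Summed over the 10 genes, the level was between 134 and 207 RPKM in the CD34lo libraries and between 29.4 and 29.7 RPKM in the CD34hi libraries. Rgs2 made up between 54.3% and 68.6% of that sum in CD34lo and between 14.3% and 24.6% in CD34hi. Rgs19 made up between 2.08% and 3.18% of the sum in CD34lo and between 15.3% and 22.05% in CD34hi, although its own level overlapped between populations. Among these 10 genes the sum was thus mostly Rgs2 in CD34lo and a mixture led by Rgs10, Rgs19, Rgs2 and Rgs12 in CD34hi. Other RGS genes are outside this sum, among them Rgs6 at a mean of 3.20 RPKM in CD34hi and Rgs11 at 1.37 RPKM in CD34lo. The summed level of the 10 R4 genes listed was between 104 and 173 RPKM in CD34lo and between 11.1 and 12.8 RPKM in CD34hi libraries.

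The pools differed among themselves as well. Rgs2 was highest in pool 1, then pool 3, then pool 2 in both populations, an order found in both populations for 295 of the 15219 genes tested (1.94%). No other fitted gene of the 10 had this order in both. Of the 113 other G protein pathway genes tested, 2 had it, a share no larger than that over all genes. These were F2r and Ednra, which were picked out after their values were seen. F2r, the thrombin receptor, was at 656, 300 and 498 CPM in CD34lo and at 31.5, 10.2 and 14.5 CPM in CD34hi libraries. Ednra, the endothelin A receptor, was at 231, 84.8 and 215 CPM in CD34lo and at 15.6, 5.19 and 9.06 CPM in CD34hi libraries.

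Early response and stress genes were measured beside the RGS genes because they can be induced by dissociation and sorting. Of 20 such genes, 13 were higher in CD34lo and 0 were higher in CD34hi by edgeR, and they summed to between 49634 and 66006 CPM in CD34lo and between 29571 and 34089 CPM in CD34hi libraries. In CD34lo, 17 of the 20 were highest in pool 2, the pool in which Rgs2 was lowest and Rgs16, by a narrow margin over pool 1, was highest. How many of all genes tested were highest in that library was not counted. Fos was at 6969, 10308 and 8205 CPM in the CD34lo libraries of pools 1, 2 and 3. In CD34hi, where Rgs2 was also lowest in pool 2, the early genes did not share 1 order. There Fos was highest in pool 3 (3278, 3705 and 4813 CPM) and Fosb in pool 2 (4640, 5428 and 5352 CPM). Whether what raised these genes had a part in the levels of Rgs2 and Rgs16 was not tested.

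Of 14 other RGS and RGS-related genes listed, 6 passed the filter on low counts, 3 were higher in CD34hi, 1 was higher in CD34lo and 2 (Rgs20 and Rgs7bp) did not pass the test. Rgs6, an R7 protein that acts on Gαi and Gαo, was at 1.73, 3.34 and 1.86 CPM in CD34lo and at 10.3, 9.13 and 5.82 CPM in CD34hi libraries. It was higher in CD34hi, with a log2 fold change of 1.88 (SE 0.32, edgeR adjusted p = 0.00185). Rgs11, also of the R7 group, was at 2.29, 3.45 and 2.51 CPM in CD34lo and at 0.246, 0.304 and 0.485 CPM in CD34hi libraries, with a log2 fold change of -2.97 (edgeR adjusted p = 0.000305). The R7 genes therefore changed in both directions. Rgs9 was at 1.38, 3.31 and 3.25 CPM in CD34lo and at 3.18, 6.93 and 15.4 CPM in CD34hi libraries. Its libraries overlapped, and its log2 fold change of 1.71 (edgeR adjusted p = 0.0413) was not past the threshold in 8 of 16 alternatives, among them limma-voom, the fits without pool 2 or without pool 3, and those without any single library other than the CD34hi library of pool 1. Without the CD34hi library of pool 3 it was 0.96. Rgs7, named after its values were seen because it is below 1 CPM, had 8 counts in the CD34lo libraries and 111 in the CD34hi libraries (edgeR adjusted p = 0.0126). With 0, 1 and 7 counts in the CD34lo libraries, it passed the filter on low counts only through the CD34hi libraries.

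**Figure D4:**
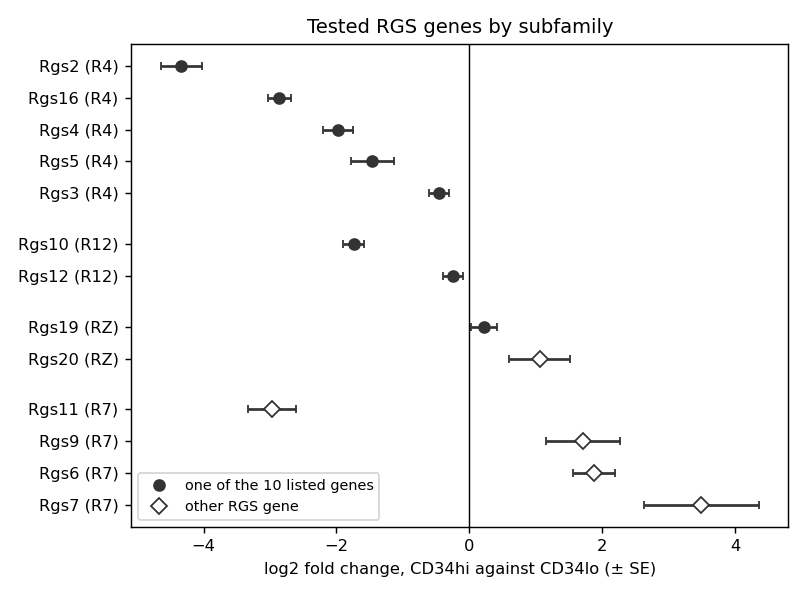
Log2 fold change, CD34hi against CD34lo, with its standard error for the RGS genes that passed the filter on low counts, grouped by subfamily, with filled circles for the genes described here and open diamonds for other RGS genes. The 5 R4 genes lie below 0, from -4.33 to -0.46, and the R7 genes lie on both sides of 0.

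The G protein genes on which RGS proteins act were measured in the same fit. Of 13 Gα genes tested, 2 were higher in CD34hi, 4 were higher in CD34lo and 7 did not pass. The widely expressed partners Gnai2, Gnaq and Gnas were among those that did not pass. Gnai2 had a log2 fold change of 0.11 (SE 0.11, adjusted p = 0.483), Gnaq of 0.04 (SE 0.11, adjusted p = 0.814) and Gnas of -0.18 (SE 0.14, adjusted p = 0.352), all by edgeR. Gna14, a Gq family member, was at 22.2, 20.7 and 19.1 CPM in CD34lo and at 1.03, 1.49 and 1.85 CPM in CD34hi libraries, with a log2 fold change of -3.82 (edgeR adjusted p = 6.88e-06). The Gα genes that were higher in CD34lo also included Gnao1 at -2.79, Gna12 at -1.77 and, outside the naming rule and named after its values were seen, Gnai1 at -1.55. Gnaz, at 1.23, and Gnal, at 0.56, were higher in CD34hi, but Gnal did not pass in 10 of 16 alternatives and Gnaz did not pass without pool 2 or without pool 3.

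Of 14 Gβ and Gγ genes tested, 6 were higher in CD34hi, 4 were higher in CD34lo and 4 did not pass. Gng2 had the largest difference, at 11.7, 8.74 and 12.99 CPM in CD34lo and at 0.537, 0.524 and 0.243 CPM in CD34hi libraries, a log2 fold change of -4.68 (edgeR adjusted p = 1.40e-05). Gngt2 and Gng12 were higher in CD34hi, with log2 fold changes of 1.91 and 1.24. Gng12 was at 350, 647 and 267 CPM in CD34hi libraries, and its log2 fold change was 0.80 without the CD34hi library of pool 2 and 0.74 without that pool. Of 12 receptor kinases, arrestins and G protein modulators, 9 did not pass. Grk3, a kinase that desensitizes receptors, was higher in CD34lo (log2 fold change -3.05, edgeR adjusted p = 4.12e-05), and Grk5 was higher in CD34hi at 0.70. Ric8a, at 0.44, did not pass without pool 1 or without pool 2.

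Downstream of Gq and G12/13, 5 of 11 genes tested were higher in CD34hi, 5 were higher in CD34lo and 1 did not pass. The inositol trisphosphate receptors went opposite ways: Itpr1 was at 104, 116 and 110 CPM in CD34lo and at 30.1, 26.7 and 28.6 CPM in CD34hi libraries (log2 fold change -1.95, edgeR adjusted p = 6.50e-06). Itpr3 was at 34.0, 29.6 and 25.9 CPM in CD34lo and at 78.3, 89.2 and 103 CPM in CD34hi libraries (log2 fold change 1.59, edgeR adjusted p = 6.95e-05). Plcb4, a phospholipase C, was higher in CD34hi at 0.96. In the cyclic AMP list, 9 of 18 tested were higher in CD34lo and 1, the adenylyl cyclase Adcy2, was higher in CD34hi with a log2 fold change of 5.04 (edgeR adjusted p = 3.56e-05), or 5.78 without the CD34lo library of pool 2. The phosphodiesterase Pde4d and the protein kinase A subunit Prkar2b each had a log2 fold change of -2.74.

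Of 39 receptors tested, 19 were higher in CD34lo, 9 were higher in CD34hi and 11 did not pass, with a median log2 fold change of -1.27 against -0.0064 over all genes. Cxcr4, the receptor of the chemokine Cxcl12, was at 21.5, 18.0 and 28.0 CPM in CD34lo and at 0.805, 0.717 and 0.706 CPM in CD34hi libraries (log2 fold change -4.91, edgeR adjusted p = 2.36e-06). F2r had a log2 fold change of -4.69 (edgeR adjusted p = 0.000111), and the purine receptor P2ry1 one of -4.38. In the other direction, the oxytocin receptor Oxtr, the adrenergic receptor Adra1b and the serotonin receptor Htr2a were higher in CD34hi, with log2 fold changes of 5.11, 5.02 and 4.71. Each of these was below 1 CPM in every CD34lo library. Over all 113 pathway genes tested, 28 were higher in CD34hi and 43 in CD34lo, together 62.8%, against 35.6% of all genes. Without pool 2, 18 rather than 28 were higher in CD34hi. Over all genes tested, the number higher in CD34hi was 1656 without pool 2 and 2570 with all libraries. The lists were chosen with earlier results of these data known, so these shares are descriptions.

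**Figure D5:**
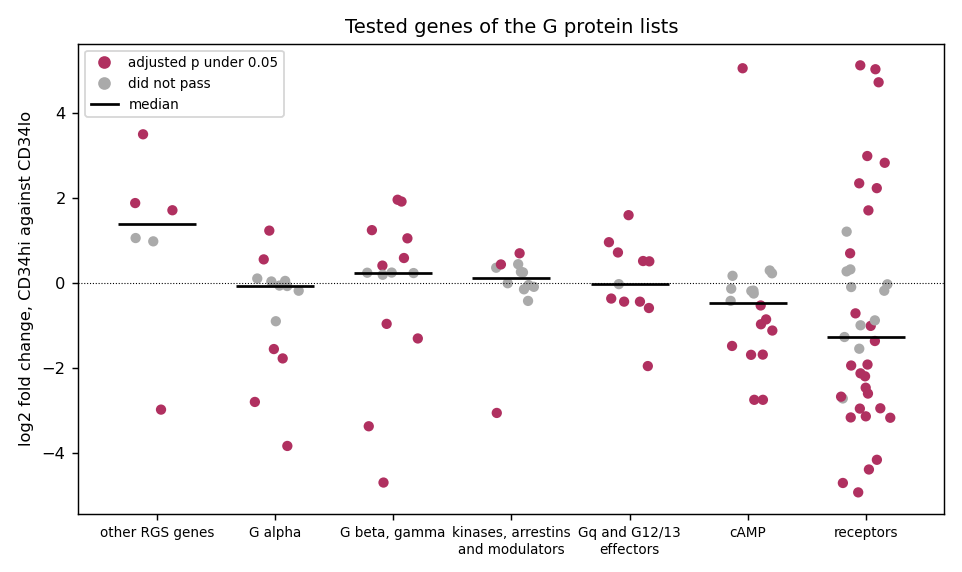
Log2 fold change, CD34hi against CD34lo, of each tested gene in 7 lists of G protein pathway genes, red where the edgeR adjusted p is under 0.05 and grey otherwise, with a black line at the median. The receptors have a median of -1.27 and reach from -4.91 to 5.11, while most kinases, arrestins and modulators lie near 0.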

How the data were processed

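RNA of fibroblasts sorted from 3 pools of mice was sequenced with a TruSeq kit that does not mark strand. The authors aligned the reads to GRCm38/mm10 and deposited counts per gene made with Rsubread, unnormalized and unfiltered. The annotation and strand setting used for counting are not given in the sources used here. Coordinates and gene lengths are those of the deposited table, and 25275 of its 27179 genes matched a RefSeq symbol.

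In R 4.3.3, edgeR 4.0.16 was applied with filterByExpr by population (15219 genes kept), TMM normalization and the quasi-likelihood test without a mouse pool term, with Benjamini-Hochberg adjustment and a threshold of 0.05. Standard errors were obtained by dividing the size of each log2 fold change by the root of its F statistic. CPM and RPKM used TMM-scaled library sizes, and log2 CPM a prior count of 2. The common coefficient of variation was 19.7%. Tested on simulated data with 15059 genes passing the filter, the pipeline called 200 of 200 changed genes. Floors cover counting error only. Whether the pools were processed separately beyond the sort is not given. Without a pool term, p-values measure the spread between the 3 libraries within each population, with differences between pools left in.

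Replicate numbers pair the libraries, since the labels give the mouse pool and both populations of a pool come from the same animals. Deviations of paired libraries from their group means correlated at 0.279, 0.0844 and 0.243.

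Alternatives were limma-voom (limma 3.58.1), DESeq2 1.42.0, upper-quartile or RLE scaling, the table without a low-count filter, a minimum of 10 counts per library, a replicate block, and leaving out each pool and each library. The members and lists were chosen with earlier results of these data known. Named genes are the 10 members, up to 3 genes a side of each pathway list with the largest log2 fold change among those past the threshold and at 1 CPM or more on average, the partners Gnai2, Gnaq and Gnas, and the 3 genes nearest in pattern to each fitted member (mean-centred log2 CPM, among genes with a mean log2 CPM of at least 3). Markers of endothelial, leukocyte and epithelial cells were listed too, and their sums are given with the other observations. One further marker list is not reported here. Promoters were searched with Python 3.11.15.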

Additional observations from a re-analysis of the deposited data

How the results depend on the processing

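With all libraries 5411 genes differed. With a pool or a library left out the total was between 3468 and 5236 genes, the lowest without pool 1, where fewer samples were fitted. These are totals for each fit, not the part of the 5411 that was kept. The paired fit with the replicate block found 6161 genes and changed no call of a member or a named gene. The 8 fitted RGS genes kept their sign in all 16 alternatives, although Rgs19 came to 0.0027 without pool 2 and 0.083 without the CD34hi library of that pool. Between 4 and 7 of them were under the threshold, and Rgs2, Rgs4, Rgs10 and Rgs16 were in every alternative. Rgs5 was not without pool 1 or pool 3, and Rgs3 not under RLE normalization, without the filter on low counts, without pool 1 or 2, or without most single libraries. With all libraries in the main fit, 35.6% of all genes tested were under the threshold. The RGS genes were selected on this contrast, so their calls are descriptions and carry no test. Values moved by more than the spread between replicates for Rgs10 without pool 2 (-1.91) and Rgs19 without pool 3 (0.49), besides those given above. Of 33 named pathway genes past the threshold, 26 passed in every alternative in which they were tested. Among the 26, Gng8, Oxtr and Adra1b were tested in only 15 of the 16 alternatives. The fit with a minimum count in every library did not include these genes. Arhgef25 did not pass without pool 1, Pde4c without pool 1 or pool 2, and Arhgef11 in 4 alternatives. Gnaq reversed under upper-quartile normalization (-0.016). In that fit the median log2 fold change over all genes tested was -0.0587, against -0.0064 in the main fit. The cause of the reversal was not tested. At this depth a gene under 0.0553 to 0.108 CPM was not measurable, which covers Rgs14.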

Other observations

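Genes whose pattern over the 6 libraries was nearest to that of an RGS gene were found by the root mean square distance of mean-centred log2 CPM among 8873 genes. These points share their libraries, and the difference between populations makes up most of each pattern. For Rgs2 they were Unc5b, Tnc and Runx2 (distances 0.175, 0.182 and 0.216). Unc5b is a netrin receptor, Tnc encodes the matrix protein tenascin C and Runx2 a transcription factor of bone formation. For Rgs16 they were Crispld2, Igfbp7 and Adamts4 (0.185, 0.196 and 0.207), all encoding secreted proteins. For Rgs4 they were Nuak1, Mest and Cp (0.137, 0.140 and 0.165), for Rgs10 Homer1, Mid1ip1 and Ror2 (0.0869, 0.116 and 0.121), and for Rgs5 Gfod1, Adpgk and Ppp1r13b (0.0939, 0.111 and 0.119). The genes nearest to Rgs3, Rgs12 and Rgs19 were B4galt3, Gigyf1 and Alg14.

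Markers of the other cell types given here had lower summed CPM than the fibroblast markers. Such sums of different genes are not scaled by gene length and do not give shares of cells. The 6 endothelial markers summed to between 57.2 and 102 CPM in CD34lo and between 536 and 698 CPM in CD34hi libraries, mostly from Tek, at a mean of 543 CPM in CD34hi, and Kdr. Pecam1, Cdh5 and Emcn were higher in CD34lo, and Vwf did not pass the edgeR test. The 10 leukocyte markers summed to between 9.52 and 14.4 CPM in CD34lo and between 18.3 and 21.1 CPM in CD34hi libraries. The higher CD34hi sum came from Cd3e, at a mean of 3.78 CPM in CD34lo and 14.9 CPM in CD34hi libraries. Cd79a was higher in CD34lo (log2 fold change -1.05), 5 of 7 tested did not pass, and the median log2 fold change was -0.71. The 5 epithelial markers summed to between 25.9 and 36.6 CPM in CD34lo and between 30.7 and 36.7 CPM in CD34hi libraries, and 0 of 5 passed the edgeR test. Their part in the RGS levels was not tested.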
